A study of Mus musculus with 20 samples.

Results

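The longest span on the chow diet in this study, week 30 against week 0, was examined in the ascending aorta of double-knockout mice. The comparison took the 3 arrays titled as week 30 on chow and the 2 arrays titled as week 0, that is 5 of the 20 arrays of the series. All 5 came from male mice with the genotype Apobtm2Sgy/Ldltm1Her, from ascending aorta that carried an atherosclerotic lesion, and both groups ate chow. Total RNA was isolated with TRIZOL, labelled with the dye Cy3 and hybridised to 1 Agilent mouse microRNA array per sample. The age tag reads 0W for one group and 30W for the other and was taken as weeks on the diet, as the treatment protocol gives these times. The age of the animals at the start was not given, so time on chow and ageing cannot be told apart. Nothing in the labels says that the replicates came from separate animals, and a p-value here covers only the spread between arrays, which may be technical.

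MicroRNAs (miRNAs) are short RNAs that pair through their seed, bases 2 to 8, with messenger RNAs and lower their output. In the artery wall, miR-143 and miR-145 mark contractile smooth muscle, miR-126 marks endothelium, and miR-223, miR-142 and miR-150 mark blood-derived immune cells. Apob encodes apolipoprotein B, the structural protein of the lipoproteins whose cholesterol collects in the lesion. The series followed miRNAs along lesion progression, and its chow arm holds the part of the time course without the high fat diet.

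At week 30 on chow, miR-5128, miR-7005-5p, miR-7015-5p, miR-3473a and miR-3473b gave between 4.66 and 21.0 times their week 0 signal. miR-376c-3p, of the imprinted Dlk1-Dio3 cluster, was at least 28.8-fold higher and miR-3474 at least 22.3-fold higher, each from a signal not well above background. Differences of -1.72 to -1.02 on the log2 scale were found for miR-487b-3p of the same cluster, miR-28a-5p, miR-28c, miR-25-3p and let-7e-5p, among others. The smooth muscle and endothelial miRNAs differed by less than 1 log2 unit. None of these differences passed the test: with limma on all 20 arrays, 0 of 609 miRNAs were called higher (0%) and 0 called lower (0%) at a Benjamini-Hochberg adjusted p of 0.05, the smallest adjusted p being 0.212. At an unadjusted p under 0.05, 103 miRNAs were higher (16.9%) and 18 were lower (2.96%), 121 in all (19.9%). The miRNAs named below are therefore given as values without a call.

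The miRNAs below had the smallest p in each direction, together with relatives that share a stretch of sequence with them, and they are printed because their sequences fall into recognisable kinds. The mature sequences were taken from RefSeq (GRCm38.p6), 5′ to 3′. In the first 4, capitals mark a run of 9 bases that they share, and miR-3473e was added after its values were seen.

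miR-5128: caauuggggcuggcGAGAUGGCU
miR-3473a: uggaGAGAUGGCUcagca
miR-3473b: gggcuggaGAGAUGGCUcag
miR-3473e: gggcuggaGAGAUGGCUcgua

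In the next 6 capitals mark the seed. The first 3 were higher at week 30 and hold 31.8% to 52.2% C and U, and the last 3 were higher as well and hold 71.4% to 87.0% C and U.

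miR-7005-5p: cCUGGGGAugggaggaccagca
miR-3474: cCCUGGGAggagacguggauuc
miR-7015-5p: uCUGUGCAguaggcuguggguuc
miR-7235-3p: uCUGACUUcuugcuucucuccuc
miR-1943-3p: cAGGUGCCagcuccucccuuc
miR-7017-3p: aCCCUGCUccucucccuccag

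The last 6, with the seed again in capitals, were lower at week 30. miR-25-3p and miR-92a-3p share a seed, and so do let-7e-5p and let-7d-5p.

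miR-25-3p: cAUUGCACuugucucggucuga
miR-92a-3p: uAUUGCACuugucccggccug
let-7e-5p: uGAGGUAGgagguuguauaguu
let-7d-5p: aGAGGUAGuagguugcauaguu
miR-28a-5p: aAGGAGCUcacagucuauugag
miR-181c-5p: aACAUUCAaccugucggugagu

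Several properties of the arrays bear on every value. The week 0 arrays lay on slide 1 and the week 30 chow arrays on slide 2, so slide and time cannot be told apart in this comparison. Between 412 and 425 miRNAs were detected on the week 0 arrays and between 550 and 629 on those of week 30, within a range of 316 to 742 over the series. Over the 192 miRNAs detected on all 20 arrays, log2 values differed with an SD of 0.75 between the week 0 arrays and 0.45 to 0.70 between the week 30 arrays. The scanner's array positions matched the sample descriptions for these 5 arrays. They did not match for the 3 arrays of week 18 on chow, which enter the intermediate time points below, nor for 2 of week 18 and all 3 of week 30 on high fat, which enter the shared estimate of spread. By position, week 18 chow replicate 1 would be a week 18 high fat array, and week 18 high fat replicate 1 a week 18 chow array. The median difference of all 609 miRNAs was 0.45 on the log2 scale. It moved to -0.37 with the 75th percentile taken over all miRNAs on the array, to -0.05 with quantile normalization and to 0.81 without scaling, so a difference is best read against the median of its own scaling. The split at an unadjusted p under 0.05 moved with it, from 103 higher and 18 lower to 47 and 152, 57 and 86, and 116 and 0, and it was 103 and 39 with scaling to the median of the detected miRNAs.

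Levels are given below on a log2 scale of scaled intensity, where the floor, the level assigned to anything dimmer, is 3.09. Levels of different miRNAs come from different probes and have no order among them. In a bulk sample, fewer cells of a type and less RNA per cell cannot be told apart.

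The first group of higher miRNAs was the one with the shared run of bases. miR-3473b was at 9.63 and 9.57 on the week 0 arrays and at 11.14, 13.16 and 12.13 at week 30, a difference of 2.54 ± 0.76 (SE). miR-3473a was at 6.11 and 6.20 and then at 7.54, 9.29 and 8.29, a difference of 2.22 ± 0.68 (SE). In both, the week 0 arrays nearly coincided, the groups did not overlap, and replicate 2 was the highest at week 30.

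miR-5128 was at 4.62 and 5.29 at week 0 and at 7.43, 9.10 and 9.13 at week 30, a difference of 3.60 ± 1.00 (SE). miR-3473e was at 3.09 and 3.52 and then at 5.30, 6.47 and 6.64. Here replicates 2 and 3 were close to each other and both above replicate 1. GAGAUGGCU was found in 4 of the 496 tested miRNAs with a RefSeq sequence and in 4 of the 1679 mature miRNAs of the RefSeq table (0.238%), and its reverse complement in 0 of the 496. As background, mouse B2 repeats, short mobile elements spread through the genome, start with a run much like it. The 4 probes may read each other's targets. By the RefSeq gene table, on either strand, the miR-5128 gene lies within the span of Strbp, that of miR-3473b within Ccdc162, and that of miR-3473a within Syap1, with the probes of miR-3473a placed by the files at chrX:159312911-159312925 (mm9).

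Next came 3 higher miRNAs of other sequence. miR-7005-5p, whose gene lies in the span of the laminin gene Lama5, was at 5.89 and 5.44 at week 0 and at 9.34, 10.32 and 10.53 at week 30, a difference of 4.39 ± 1.25 (SE). miR-7015-5p, within the span of Smap2, was at 3.38 and 4.10 and then at 6.60, 8.60 and 7.72. miR-3474, within the span of the chromatin remodelling subunit gene Actr5, was not well above background on either week 0 array and stood at 6.54, 8.60 and 7.58 at week 30. That made miR-3474 at least 22.3-fold higher, with an adjusted p of 0.212 in limma and group means of 3.09 and 7.57. In these 3 miRNAs the lowest week 30 array was replicate 1, and every week 30 array was at least 2 log2 units above both week 0 arrays. Such a bound divides the week 30 mean by a week 0 mean in which each array stands at the floor, at its dimmest detected signal or at the miRNA's own signal, whichever was brightest.

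A further 4 higher miRNAs had another order among the week 30 arrays. miR-376c-3p was at the floor on both week 0 arrays and at 8.12, 8.41 and 7.29 at week 30, at least 28.8-fold higher with limma's adjusted p of 0.212 and group means of 3.09 and 7.94. The files place its probes at chr12:110960981-110961000 (mm9), in the maternally expressed miRNA cluster next to Dlk1, and the RefSeq gene table gives no gene spanning it. miR-7235-3p, within the span of Tbkbp1, was at 3.85 and 3.09 and then at 7.10, 7.69 and 6.31, at least 11.8-fold higher (adjusted p of 0.212, limma). In both, replicate 3 was the lowest of the week 30 arrays and still well clear of week 0.

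miR-1943-3p, within the span of Tmem184b, was at 4.18 and 3.09 at week 0 and at 7.19, 7.80 and 6.47 at week 30. miR-7017-3p, within the span of the actin regulator gene Wasf2, was at 3.82 and 3.09 and then at 6.42, 6.89 and 5.62. Each was well above background on 1 of the 2 week 0 arrays. The differences were 3.51 ± 1.12 and 2.85 ± 0.91 (SE).

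**Figure D1:**
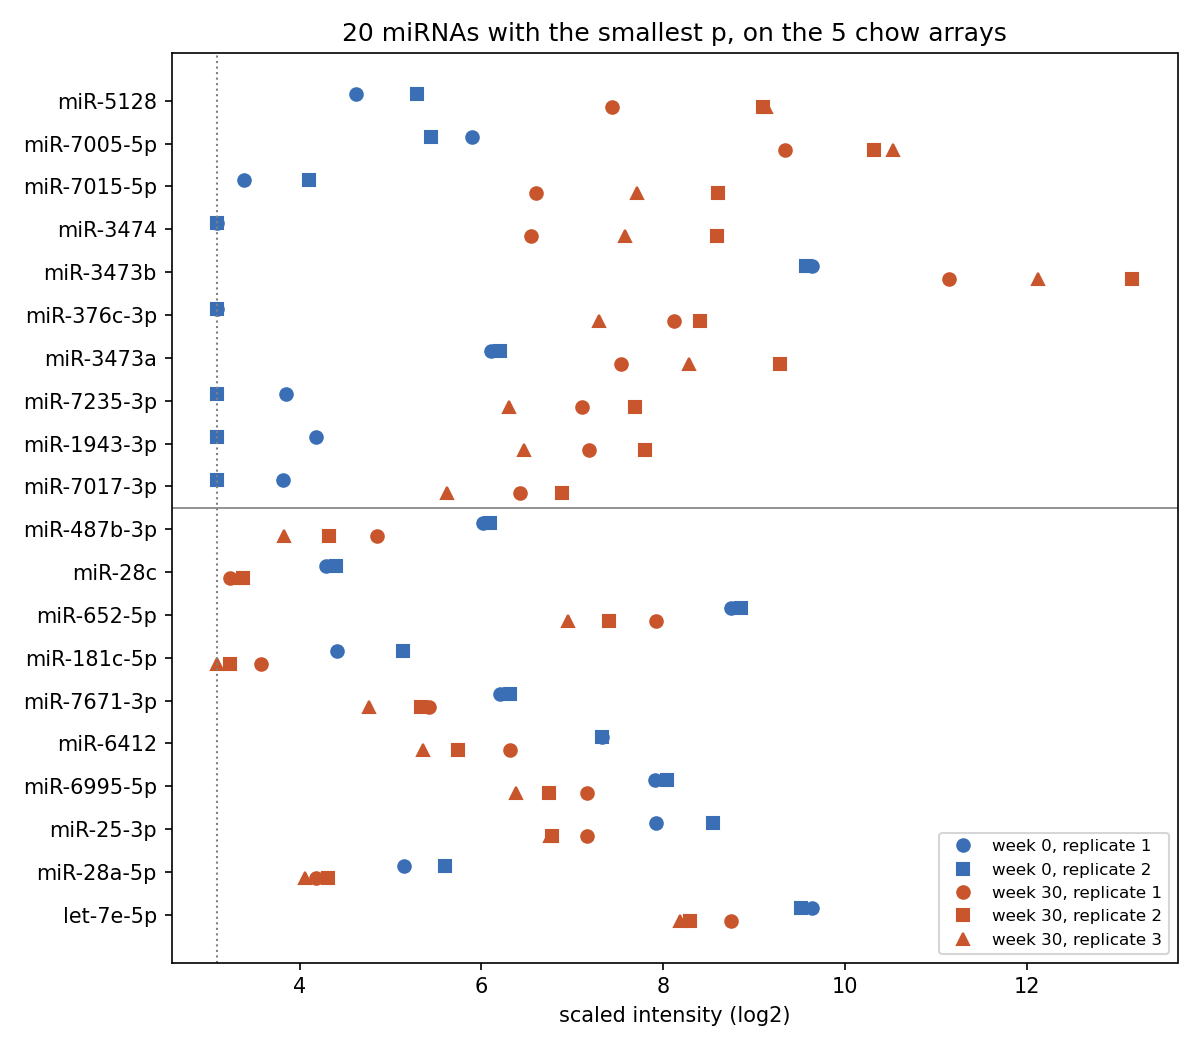
Scaled intensity (log2, horizontal axis) of the 10 higher and 10 lower miRNAs with the smallest p, with blue points for the 2 week 0 arrays, orange points for the 3 week 30 arrays and a dotted line at the floor of 3.09. For all 20 miRNAs the orange and blue points do not overlap, and miR-3474 and miR-376c-3p lie on the floor at week 0. The 20 were picked by p on these arrays, and 359 of all 609 tested miRNAs (58.9%) do not overlap either.

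These 10 higher miRNAs followed 2 courses over the chow weeks. Over all 20 arrays, Pearson's r between members was 0.86 to 0.99 within the 6 miRNAs of the first course (miR-5128, miR-7005-5p, miR-7015-5p, miR-3474, miR-3473b and miR-3473a) and 0.88 to 0.99 within the 4 of the second (miR-376c-3p, miR-7235-3p, miR-1943-3p and miR-7017-3p). It was -0.14 to 0.03 between the courses. The 2 courses were split by r with miR-5128 over these same arrays. The ranges within and between them therefore follow in part from the split and lend it no support. These correlations describe arrays that share slides and scaling, and the miRNAs had been picked on 5 of them.

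In the first course the mean was higher at each later week: the step was 0.76 to 1.68 from week 0 to 6, 0.98 to 2.25 from week 6 to 18 and 0.42 to 1.52 from week 18 to 30. In the second course most of the difference was present by week 6, with a step of 3.64 to 5.39, followed by one of -2.09 to -1.83 and one of 1.04 to 1.55. The week 18 arrays were spread widely in both. miR-3473b was at 13.08, 9.70 and 12.23 on week 18 replicates 1, 2 and 3, and miR-376c-3p was at 3.09, 8.48 and 7.61 on the same arrays. Replicate 1 of week 18 was thus the highest for the one and at the floor for the other. By its position that array would belong to week 18 on high fat, and it had the fewest detected miRNAs of the series (316). The week 18 means of both courses rest partly on it.

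The steps from week 0 to 6 and from week 18 to 30 were each measured within 1 slide, and only the step from 6 to 18 crossed slides. Summed, the within-slide steps were 1.18 to 2.92 for the first course and 4.68 to 6.94 for the second. They were above 0 for all 10. They use the same week 0 and week 30 arrays on which the 10 were picked, which favours that sign. In limma the sum of these steps passed an adjusted p of 0.05 for 125 miRNAs upward and 0 downward, 4 of the leading 20 among them. This sum leaves out the time between weeks 6 and 18 and is another quantity than the full difference. With the groups taken from the array positions in the descriptions it was 103 upward and 0 downward.

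**Figure D2:**
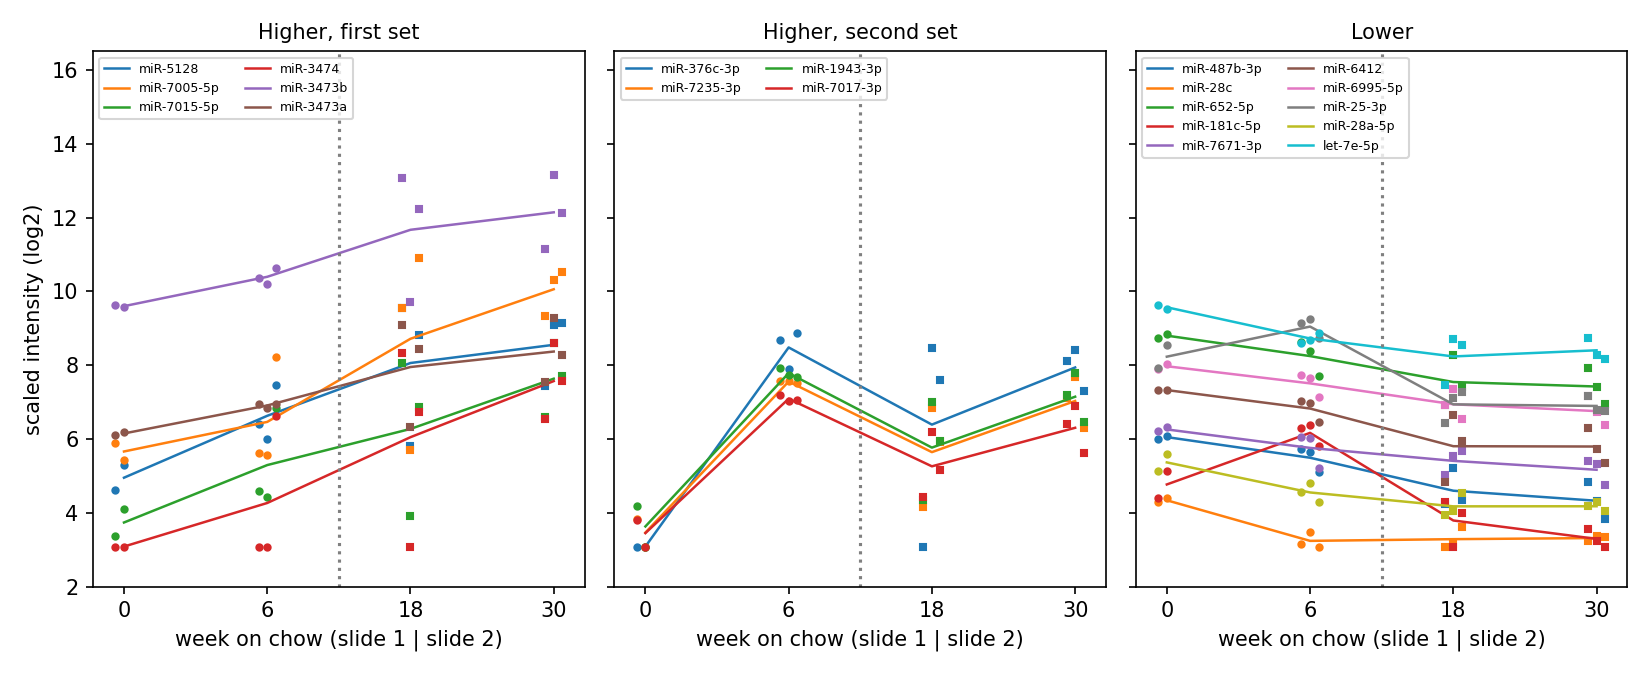
Scaled intensity (log2) against week on chow for the 6 higher miRNAs of the first course, the 4 of the second and the 10 lower ones, with a point per array (circles on slide 1, squares on slide 2) and lines through the week means. The first course is higher at each week, the second is already high at week 6, and the dotted line marks the change of slide.

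Among the lower miRNAs, miR-487b-3p had the smallest p. It was at 6.01 and 6.10 at week 0 and at 4.84, 4.32 and 3.83 at week 30, a difference of -1.72 ± 0.53 (SE), and its probes lie at chr12:110965597-110965613 (mm9), in the same imprinted cluster as miR-376c-3p. miR-28a-5p, within the span of the cell adhesion gene Lpp, was at 5.14 and 5.60 and then at 4.18, 4.31 and 4.06. Its close relative miR-28c was at 4.29 and 4.40 and then at 3.23, 3.37 and 3.35. In all 3 every week 30 array lay below both week 0 arrays.

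miR-25-3p, within the span of the replication gene Mcm7, was at 7.92 and 8.54 at week 0 and at 7.16, 6.78 and 6.76 at week 30. let-7e-5p, within the span of Spaca6, was at 9.63 and 9.51 and then at 8.75, 8.29 and 8.18. miR-181c-5p was at 4.41 and 5.13 and then at 3.57, 3.23 and 3.09, and it was well above background on 1 of 3 week 30 arrays. In each of these 3 miRNAs replicate 1 was the highest array of week 30, and the groups did not overlap.

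The other leading lower miRNAs, miR-652-5p, miR-7671-3p, miR-6412 and miR-6995-5p, differed by -1.53 to -1.09, again with week 30 replicate 3 the lowest. Over the 10 lower miRNAs the SE was 0.36 to 0.59 and limma's adjusted p was 0.212 to 0.213. Summed within slides, the steps had the other sign for miR-181c-5p (0.90) and miR-25-3p (0.77), which were both higher at week 6 than at week 0. For the other 8 it was -1.07 to -0.51.

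The limma fit above shares its spread over 7 groups, and 4 arrays of the other groups had the fewest detected miRNAs of the series (316 to 355). A fit on the 5 arrays alone called 43 miRNAs higher (7.06%) and 1 lower (0.164%), 8 of the leading 20 among them, and the fit without those 4 arrays called 32 and 1. The only lower one in the 5-array fit was miR-486a-5p, abundant in red blood cells, with limma's adjusted p of 0.0484. It was at 7.14 and 7.22 at week 0 and at 6.05, 5.62 and 5.54 at week 30, a difference of -1.44. Which spread suits this comparison was not tested, and with array weights the counts were 198 and 51.

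Detection differed between the groups as well. Of the 609 tested, 342 were detected on all 5 arrays, and of these 170 were higher and 172 lower, with a median difference of -0.00069. A further 169 were detected on every week 30 array but not on every week 0 array, and 168 of them were higher. This class was picked by brighter signal at week 30, so the count is a description only. Another 28 passed through week 0 but not week 30, and the remaining 70 passed through another group. Of the 103 higher miRNAs at an unadjusted p under 0.05, 53 were not detected on any week 0 array and 27 were detected on both. Groups of arrays did not overlap for 255 miRNAs in the higher direction (41.9%) and for 104 in the lower (17.1%), 359 in all (58.9%).

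**Figure D3:**
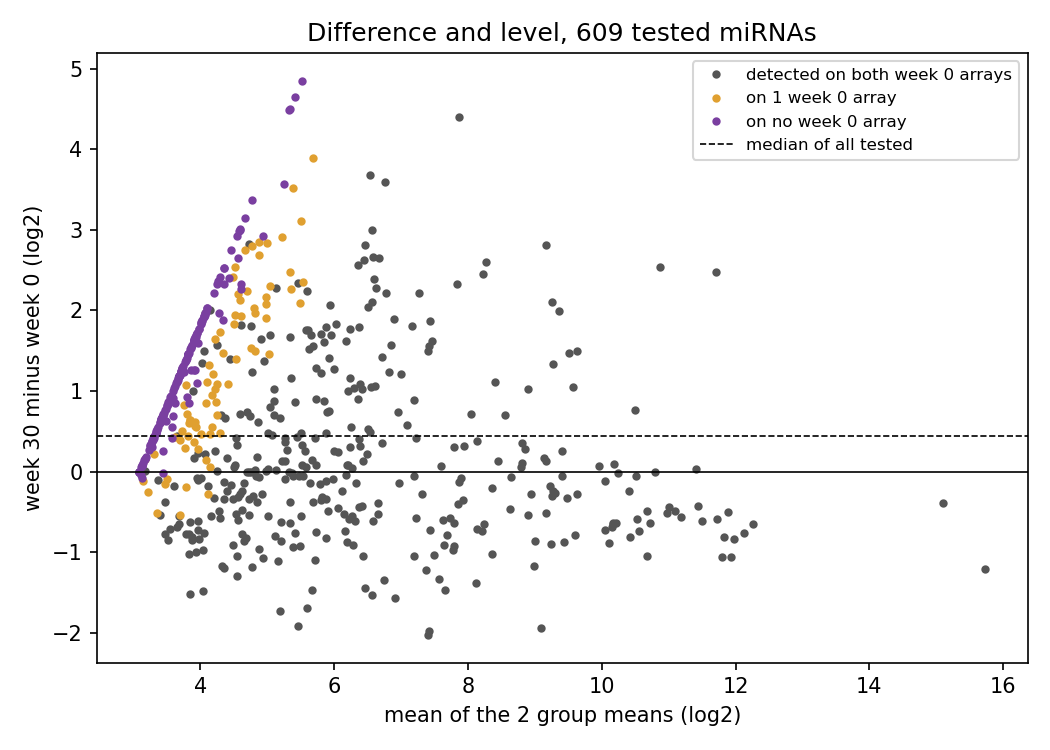
Week 30 minus week 0 (log2) against the mean of the group means (log2) for the 609 tested miRNAs, coloured by detection on the week 0 arrays, with a dashed line at the median of 0.45. The miRNAs detected on no week 0 array lie at low level and almost all at or above 0.

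The difference varied with the base composition of the mature miRNA. Among the 46 miRNAs with over 70% C and U, 45 were higher and 1 was lower, the median was 1.90, and 30 of them were higher at an unadjusted p under 0.05, beside 16.9% of all tested miRNAs. The 138 with over 40% to 50% C and U had a median of -0.12, with 65 higher and 72 lower, and the 84 with at most 30% had a median of 0.71, with 68 higher and 16 lower. Both ends of the range thus lay above the median of all miRNAs, and the middle lay below it. Of the 46 pyrimidine-rich miRNAs 33 were not detected on any week 0 array, and the 8 detected on all 5 arrays had a median of 2.04. In the class from 60% to 70% the median was 0.39 over 48 miRNAs and -0.53 over the 23 detected on all 5 arrays. The classes were set after values had been seen, and tested miRNAs without a sequence in the table were left out.

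By week, the pyrimidine-rich class had a median step of 2.46 from week 0 to 6, -1.59 from week 6 to 18 and 1.05 from week 18 to 30. The class with at most 30% had 0.42, 0.48 and -0.19. Within slides the sum of the steps was 3.35 and 0.22. The part of sequence composition, labelling or hybridisation in these values was not tested.

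**Figure D4:**
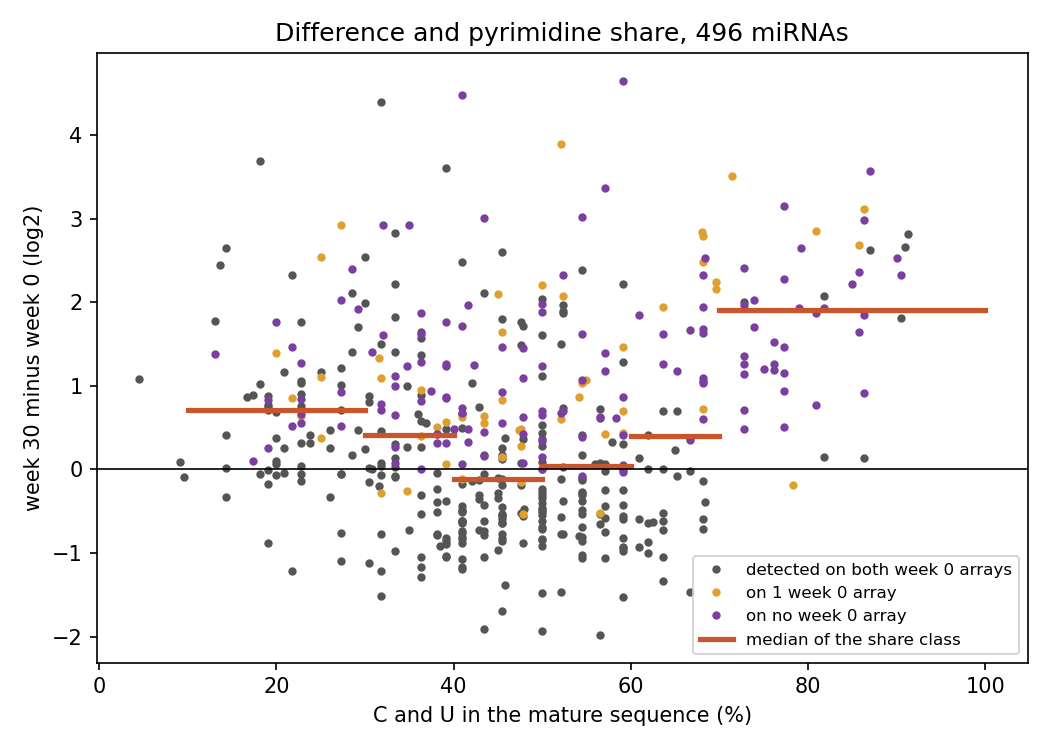
Week 30 minus week 0 (log2) against the percentage of C and U in the mature sequence for 496 miRNAs, coloured by detection at week 0, with orange bars at the median of each class. The bars run from 0.71 at the purine-rich end through -0.12 to 1.90 at the pyrimidine-rich end.

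For the contractile and lining cells of the artery, the smooth muscle miRNAs differed by -0.65 to 0.33 and the 2 endothelial miRNAs by -0.59 to 0.08. miR-143-3p, the most used smooth muscle marker, was at 10.81 and 10.27 at week 0 and at 10.40, 10.43 and 10.62 at week 30. miR-145a-5p was at 9.18 and 8.98 and then at 8.78, 8.81 and 8.81, a difference of -0.28 ± 0.38 (SE). Of the 8 smooth muscle miRNAs 6 were tested, 3 higher and 3 lower, none at an unadjusted p under 0.05, with a median of 0.01 beside 0.45 for all miRNAs. All 6 lay below 0.45, and 2 were lower without overlap, beside 17.1% of all tested miRNAs. The endothelial miR-126a-3p was at 12.36 and 11.68 and then at 11.89, 10.81 and 11.60, and its groups overlapped. The smooth muscle and endothelial markers of an aorta were thus present on all 5 arrays.

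Immune cell miRNAs were lower at week 30. In the medians of their lists the difference came mostly from 1 of the week 0 arrays, but this did not hold for every member. miR-150-5p, of mature lymphocytes, was at 7.01 and 9.84 at week 0 and at 6.85, 5.94 and 6.40 at week 30. miR-155-5p, induced in activated leukocytes, was at 4.46 and 8.39 and then at 4.58, 4.49 and 4.46. Replicate 2 of week 0 stood far above the other 4 arrays, which were nearly level for miR-155-5p.

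Over the lymphocyte list 6 of 7 miRNAs were tested and 6 were lower, with a median of -1.39 and none at an unadjusted p under 0.05. The mean level of the list was 5.93 on week 0 replicate 1, 7.75 on replicate 2 and 5.23 to 5.73 at week 30. Without week 0 replicate 2 the median was -0.56, and without replicate 1 it was -2.29. miR-342-3p of this list was at 7.07 and 9.75 and then at 7.21, 6.36 and 5.72, and it too had its high value on replicate 2. miR-128-3p was at 5.59 and 5.70 and then at 4.78, 4.64 and 4.91, with both week 0 arrays alike. Of the 6 tested, 4 were lower without overlap, beside 17.1% of all tested miRNAs. The sum of the within-slide steps had a median of 1.13 for the list, and miR-181b-5p (2.90) and miR-128-3p (4.19) went upward past limma's adjusted threshold in it, at 0.0198 and 0.0149.

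The 4 tested myeloid miRNAs were all lower as well, with a median of -0.85, which was -0.25 without week 0 replicate 2. Their median step was 1.25 from week 0 to 6, -2.20 from week 6 to 18, where the slide changed, and 0.05 from week 18 to 30, and the within-slide sum had a median of 1.33. miR-223-3p, of neutrophils and monocytes, was at 8.34 and 8.20 at week 0 and at 7.72, 7.08 and 7.08 at week 30, a difference of -0.97 ± 0.61 (SE) to which both week 0 arrays contributed alike. miR-142a-3p, found across blood cells, was at 7.26 and 9.25 and then at 7.41, 7.33 and 7.26. The 4 NF-kB induced miRNAs had a median of -1.12, of 0.02 without week 0 replicate 2 and of -0.21 for the within-slide sum. miR-146a-5p, a feedback inhibitor of NF-kB signalling, was at 5.16 and 7.72 and then at 4.66, 5.19 and 4.37.

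Striated muscle miRNAs showed the other week 0 array apart. miR-133a-3p, which marks cardiac and skeletal muscle, was at 6.79 and 9.98 at week 0 and at 9.13, 9.32 and 9.78 at week 30, and miR-1a-3p was at 7.29 and 10.25 and then at 9.75, 10.16 and 10.83. The list mean was 5.54 on week 0 replicate 1, 8.01 on replicate 2 and 8.05 to 8.41 at week 30. The 5 tested members of 9 were all higher, with a median of 1.05. It was -0.26 without week 0 replicate 1 and -0.06 with the 75th percentile over all miRNAs. miR-206-3p, of skeletal muscle, was the member at an unadjusted p under 0.05: it was at 3.09 and 4.43 and then at 7.24, 6.77 and 6.02. The cardiac miR-208a-3p, miR-208b-3p and miR-499-5p of the list were not among the tested miRNAs.

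Of the 8 tested epithelial miRNAs 6 were higher, with their high values on 1 week 30 array, and 2 were lower. miR-200a-3p, of the family that maintains epithelial identity, was at the floor on both week 0 arrays and at 3.09, 8.32 and 3.80 at week 30. miR-200b-3p, miR-200c-3p, miR-141-3p, miR-429-3p and miR-205-5p were likewise at 7.28 to 8.34 on replicate 2. The lower ones did not have this pattern: miR-203-3p was at 6.75 and 6.33 and then at 6.36, 5.29 and 5.76, and miR-182-5p was at 5.37 and 4.36 and then at 4.68, 4.25 and 4.24. By week, the epithelial list had a median step of 2.86 from week 0 to 6, -1.39 from week 6 to 18 and 0.21 from week 18 to 30. Its within-slide sum had a median of 3.22. In the median of the steps the list was thus also higher at week 6 than at week 0. The mean over the 8 tested members of 9 was 3.83 and 3.77 at week 0 and 3.70, 7.10 and 3.85 at week 30. The list's median was 1.63, and 0.04 without replicate 2. miR-34b-5p, of the p53-responsive and ciliated-cell miR-34 family, had a similar pattern at 3.09 and 3.09 and then 3.60, 9.99 and 4.69, and the median of the 3 tested p53-linked miRNAs was 1.62 with that array and 0.93 without it. Replicate 2 was also the highest week 30 array for 8 of the 10 leading higher miRNAs, whose differences without it were 1.76 to 4.62.

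Blood and liver miRNAs were mixed. miR-451a, the erythrocyte miRNA processed without Dicer, was at 12.80 and 12.12 at week 0 and at 12.17, 11.19 and 10.83 at week 30, while miR-144-3p, from the same primary transcript, was at 5.74 and 3.14 and then at 7.41, 6.28 and 5.91. The 4 tested red cell miRNAs had a median of -0.81, with 3 lower and 1 higher, and their within-slide sum was 0.62. miR-122-5p, almost particular to hepatocytes, was not well above background at week 0 and stood at 3.44, 6.00 and 3.69. The 6 adipose miRNAs had a median of -0.42, the 3 liver miRNAs -0.38 and the 4 neuronal miRNAs 0.29, with none of these at an unadjusted p under 0.05. Within slides these medians were -0.88, 0.64 and 1.22.

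Families without a cell type were read next. In the let-7 family, whose members restrain growth programmes, 11 of 11 were tested. The 8 members from let-7a-5p to let-7i-5p and miR-98-5p were all lower without overlap, beside 17.1% of all tested miRNAs, with differences of -1.17 to -0.55, and let-7j and let-7k, both dim at week 0, were higher. let-7d-5p was at 11.09 and 11.30 at week 0 and at 10.62, 9.83 and 9.98 at week 30. At an unadjusted p under 0.05, 2 of the 11 members were lower, beside 2.96% of all tested miRNAs. The family median was -0.69 beside 0.45 for all, and it stayed negative under every scaling run, from -1.79 to -0.28. The probes of such close relatives may read one another's targets.

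The proliferation-linked cluster of miR-17 to miR-92 and its paralogs had 12 of 13 members tested, 1 higher and 11 lower, with a median of -0.82 and 9 lower without overlap, beside 17.1% of all. miR-93-5p was at 7.56 and 7.90 at week 0 and at 7.15, 6.38 and 6.50 at week 30. miR-92a-3p, which shares its seed with miR-25-3p, was at 7.68 and 9.09 and then at 6.78, 6.99 and 7.0. The median step of these 12 was 1.60 from week 0 to 6, -2.17 from week 6 to 18 and 0.04 from week 18 to 30. The step from week 6 to 18 also crossed slides, so slide and time cannot be told apart in it. Within slides the sum was 1.88, and miR-18a-5p passed limma's adjusted threshold there upward, at 0.0367. The miR-15 and miR-16 group, which slows the cell cycle, had 5 of 5 members lower without overlap, with a median of -0.51, and its within-slide sum was 0.34.

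The members of the Dlk1-Dio3 cluster differed in both directions. Of the 15 tested members 7 were higher and 8 lower, from -1.72 for miR-487b-3p to 4.85 for miR-376c-3p, with a median of -0.28. miR-494-3p was at 10.65 and 10.29 at week 0 and at 11.84, 13.83 and 13.18 at week 30, and miR-379-5p was at 4.83 and 4.23 and then at 3.58, 4.0 and 3.09. miR-376a-3p, a relative of miR-376c-3p, differed by 0.31. In the imprinted H19 and Igf2 list, 2 of 4 miRNAs were tested and both were higher, with a median of 1.45. Of these, miR-483-3p, in the Igf2 locus, was at 3.93 and 3.78 and then at 5.69, 6.26 and 5.05.

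In the Sfmbt2 cluster, a large rodent group of repeat-rich miRNAs, 42 of 61 were tested. Of these 39 were higher and 2 lower, with a median of 1.64, and 10 were higher at an unadjusted p under 0.05, beside 16.9% of all tested miRNAs. miR-669b-3p was at the floor at week 0 and at 4.24, 5.70 and 4.31 at week 30, at least 3.16-fold higher with limma's adjusted p of 0.212. Of the 42, 20 were detected on both week 0 arrays and 37 on all week 30 arrays. Of the 114 tested miRNAs numbered miR-6896 to miR-7119, a range with many predicted intronic hairpins, 98 were higher and 15 lower, with a median of 0.97, and 33 were higher at an unadjusted p under 0.05. Entries with at least 70% G and C had a median of 0.47 over 40 miRNAs, near that of all.

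**Figure D5:**
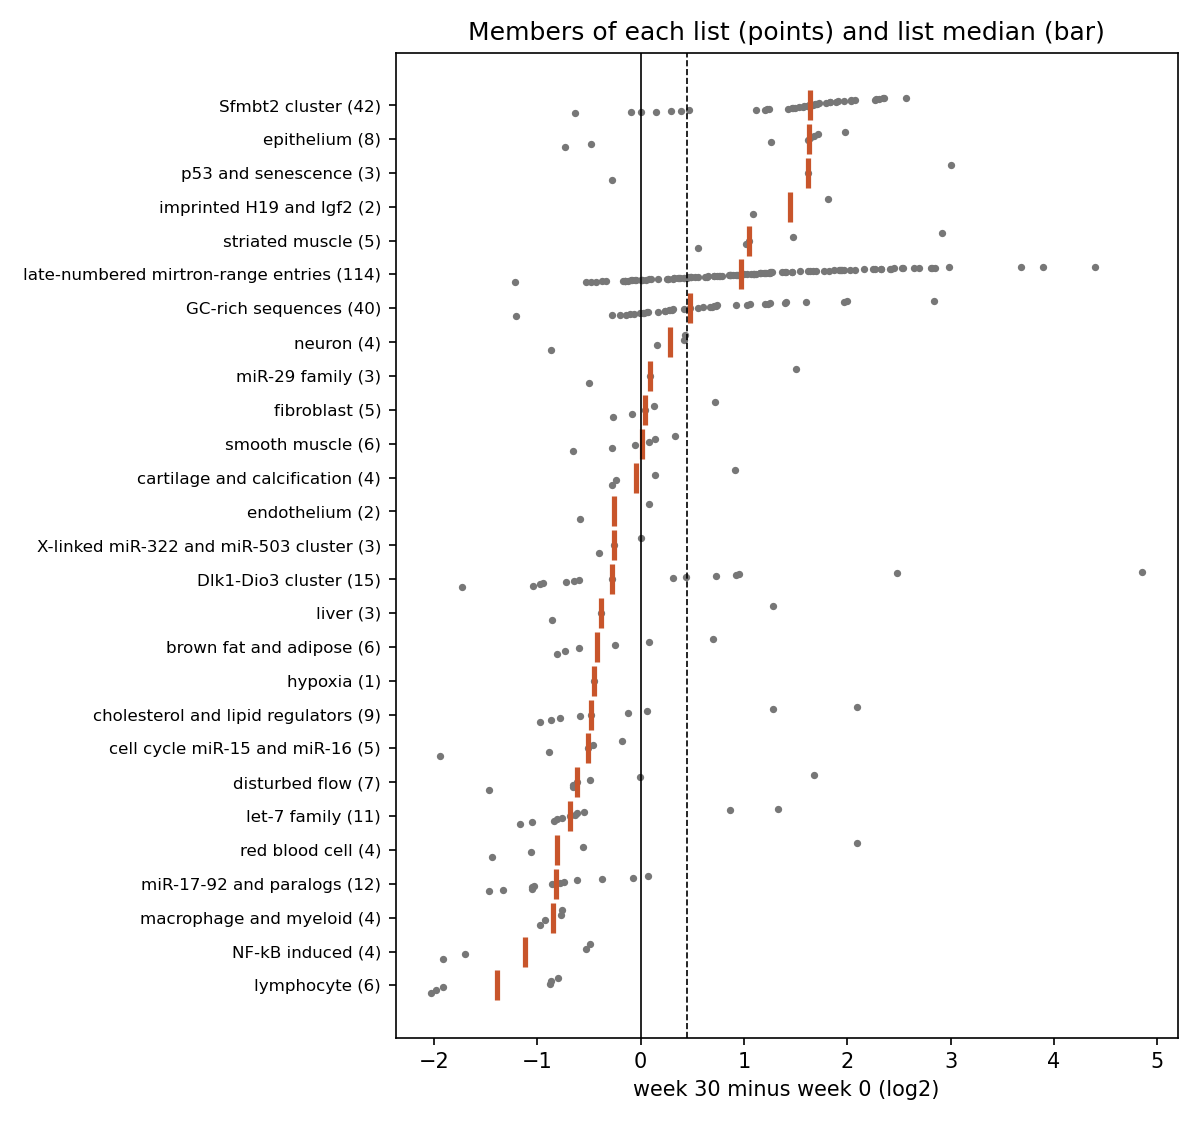
Week 30 minus week 0 (log2) for the tested members of each list (grey points, number in brackets) with the list median (orange bar), a solid line at 0 and a dashed line at 0.45, the median of all 609. The lymphocyte, NF-kB, myeloid and miR-17-92 lists lie to the left, and the Sfmbt2, epithelial and p53 lists to the right.

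The remaining list medians lay between -0.62 and 0.09. miR-29b-3p, a repressor of collagen output, was at 9.63 and 8.11 at week 0 and at 10.55, 10.38 and 10.20 at week 30, while miR-29a-3p, with the same seed, differed by -0.50 and miR-29c-3p by 0.09. The list medians were 0.05 for 5 fibroblast miRNAs, -0.05 for 4 of cartilage and calcification, -0.48 for 9 regulators of cholesterol and lipids, -0.62 for 7 linked to disturbed flow and -0.26 for 3 of the X-linked miR-322 cluster. The hypoxia miRNA miR-210-3p differed by -0.45. Of the 20 miRNAs of a vascular panel 19 were tested, 5 higher and 14 lower, none at an unadjusted p under 0.05, among them miR-21a-5p, abundant in lesions, at 10.36 and 11.47 and then at 10.20, 11.07 and 10.01.

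The 5 miRNAs named for the brightness of their probes at week 0 were all lower at week 30, a direction that a pick on week 0 brightness favours. The 5 brightest at week 30 were miR-6366, miR-3963 and miR-5100 again, with miR-494-3p and miR-3473b, which were both higher at week 30. miR-6366 was at 16.26 and 16.41 at week 0 and at 15.54, 15.14 and 14.69 at week 30, a difference of -1.21 ± 0.53 (SE). miR-3963 differed by -0.38, miR-5100 by -0.65, let-7c-5p by -0.76 and miR-451a by -1.06.

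Against the high fat arm, which has the same week 0 arrays, week 0 cancels from the difference of the 2 changes, leaving chow against high fat at week 30. The chow arrays of week 30 lay on slide 2 and the high fat arrays on slide 3, so diet and slide cannot be told apart here. The positions of these 3 high fat arrays did not match their own descriptions, but matched those of other replicates of the same group. With limma 0 of 609 miRNAs were called in that difference (0%), with 114 at an unadjusted p under 0.05 and a smallest adjusted p of 0.167. For the 10 leading higher miRNAs the change on chow minus that on high fat was -0.70 to -0.04 in the first course and 0.99 to 2.95 in the second, none past the threshold.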

How the data were processed

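The deposited values are spot intensities from 1-colour arrays, which the authors made with Agilent Feature Extraction (version 11.5.1 in the submitters' processing notes), with background subtracted and no scaling between arrays, per the file headers. The deposited value table holds the same intensities. Probe positions refer to mm9, per the file headers. Each array has 56430 miRNA spots from 4415 probes for 1881 miRNAs and 2164 control spots, which were left out along with outlier spots (1717 to 2199 on the 5 arrays), and 0 spots were saturated. The number of arrays limits the precision.

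A miRNA's value was the mean of its probe means. It counted as detected where, for 1 probe, a share of 0.5 or more of the usable spots was well above background. Signals were scaled to the 75th percentile per array, computed from the 192 miRNAs that all 20 arrays detected, floored at 3.09 and converted to log2. Values at the floor add no spread, so a standard error can be too small there. limma 3.58.1 under R 4.3.3 (lmFit, eBayes) tested 609 miRNAs, those that at least 1 group detected on all its arrays. The fit held 20 arrays in 7 groups, had 13 residual degrees of freedom and was 2-sided, with Benjamini-Hochberg adjustment at 0.05. It counted near-identical arrays as separate: week 6 chow replicates 1 and 2 (SD of log2 differences 0.28) and week 30 high fat replicates 2 and 3 (0.18). Negative controls had an SD of 21.7 on week 18 high fat replicate 3, beside 2.43 and 2.49 on the week 0 arrays. The procedure was tested on simulated data.

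Members and lists were chosen with earlier results of these data known. Named miRNAs were the 10 higher and 10 lower with the smallest p (fewer than 10 were called), up to 4 per list by p, a panel of 20 and the 5 brightest per group. Alternatives covered scaling, background, floor, detection filter, arrays entering the fit, array weights, slide and replicate blocks and leaving out each array. The summed gene signal and groups from array positions were added after the data were seen. Mature sequences were matched by name for 496 of the 609 tested miRNAs. Host genes were looked up by name in RefSeq GRCm38.p6, and no coordinate of that build is printed. Tables were joined with pandas 2.3.3.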

Additional observations from a re-analysis of the deposited data

How the results depend on the processing

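The count of 0 higher and 0 lower miRNAs was also obtained without scaling, with quantile or median scaling, with the floor moved by 1 either way, with 192, 539 or all 1881 miRNAs tested, with outlier spots kept, on the 11 chow arrays, with near-identical arrays averaged, with the slide as a random block (correlation 0.000885), with an intensity trend, with the summed gene signal, with groups from the array positions, and without each of the 5 arrays in turn (0 to 0 in both directions). Higher counts moved to 3 with normexp background (miR-3473b, miR-376c-3p and miR-7005-5p), 43 on the 5 arrays alone, 32 without the 4 arrays of other groups that stood apart, 198 with array weights, and 125 for the steps within a slide (103 with groups from the array positions). Lower counts moved to 4 with the 75th percentile over all miRNAs (miR-28a-5p, miR-28c, miR-487b-3p and miR-6399), 1 on the 5 arrays alone, 1 without the 4 arrays and 51 with array weights. The 5-array and reduced fits differ from the full one in the arrays that set the spread; for the others the cause was not tested. Only the steps within a slide turned a sign past the threshold: miR-18a-5p at 1.98, miR-128-3p at 4.19 and miR-181b-5p at 2.90, or 1.96, 3.61 and 2.68 with groups from the array positions. No leading miRNA changed sign in any other setting. Replicate numbers are shared by only 2 pairs of arrays and mark no shared animal in the labels. The deviations of same-numbered arrays correlated at -0.15 and -0.05, and the fit with the replicate number as a block called 0 higher and 0 lower. Dim miRNAs limit the comparison: 163 of 609 tested miRNAs were not detected on any week 0 array.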
